A study of Mus musculus with 6 samples.

Results

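The genes described here are Krt18 and 9 further intermediate filament genes, Krt8, Krt7, Krt10, Krt19, Vim, Nes, Lmna, Lmnb1 and Lmnb2. They were taken by symbol from the count tables and make up 10 of the 24063 genes listed there. Krt18 was selected on its measured fold change between the groups, and the values of the 10 genes in that contrast are given as a description, without p-values. RNA was sequenced from LSK cells, the lineage-negative, Sca-1+, c-Kit+ fraction of mouse bone marrow that holds blood stem and early progenitor cells. The Asxl2-/- group comprised 3 libraries from Mx1-cre Asxl2 fl/fl mice, and the wild-type group 3 libraries from Mx1-cre mice with intact Asxl2. Both groups were of the C57BL/6 strain, both carried Mx1-cre and both received pIpC, a synthetic double-stranded RNA that switches on the interferon-responsive Mx1 promoter and with it the Cre recombinase. Mx1-cre is not limited to LSK cells, so Asxl2 was also open to deletion in other cells that respond to interferon. The methods describe 3 biological replicates per group, taken weeks after pIpC, and the labels give neither age nor sex.

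Intermediate filaments are ropes of coiled-coil proteins that give cells and nuclei mechanical strength. Keratins can form filaments only as pairs of a type I and a type II protein. Krt18 is a type I keratin whose usual partner in simple epithelia is the type II keratin Krt8, while Krt7 is another type II keratin and Krt10 and Krt19 are type I keratins. Vimentin (Vim) is the type III filament protein of mesenchymal and blood cells, and nestin (Nes) is a large filament protein best known from neural stem cells that also marks some stromal and vascular cells of the marrow. Lamins line the inner side of the nuclear envelope. Lmna encodes lamin A and lamin C by alternative splicing, and Lmnb1 and Lmnb2 encode the B-type lamins.

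Total counts were 25528540 to 29136012 in the transcript-level files (Asxl2-/- replicates 1 and 3, wild-type replicate 2), which give 1 count per transcript. They were 53147729 to 55032075 in the exon-level files (Asxl2-/- replicate 2, wild-type replicates 1 and 3), which count a read that crosses a splice junction once in each exon it touches. In the exon-level files, exon 11 of Asxl2 held 0.583% of the Asxl2 counts in Asxl2-/- replicate 2 against at least 10.3% in wild-type replicates 1 and 3. Xist, which is made from the inactive X chromosome, had 49540 to 66689 counts in the Asxl2-/- libraries and 590 to 3194 in the wild-type libraries, and the Y-linked gene Ddx3y had 0 to 2 against 2837 to 4807. Genotype and sex therefore cannot be told apart in any comparison here. Levels are given in CPM, counts scaled to a common library size with the normalisation factors applied, and where 3 values are given for a group they stand in the order of replicates 1, 2 and 3. The summed level of 9 stem and progenitor markers was 1680 to 2090 CPM in Asxl2-/- and 1450 to 1720 in wild-type libraries, and that of 9 lineage-positive blood cell markers was 89.0 to 142 against 68.9 to 102.

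The sequences upstream of Krt18, Krt8, Krt7 and Nes are shown because Krt18 and Krt8 lie head to head on chromosome 15 yet had very different counts, and because Krt7 and Nes had the folds nearest to that of Krt18 or above it. RefSeq promoter sequences on GRCm38.p6, which has the same chromosome coordinates as the mm10 build of the files, were matched for 8 of the 10 genes. Each line gives the 250 bases before the annotated start, 5′ to 3′ on the gene's strand, with TATA boxes (TATAA) or GC boxes (GGGCGG) on either strand in capitals. The Krt18 sequence lies at chr15:102027966-102028215 (plus strand), that of Krt8 at chr15:102004343-102004592 (minus strand), that of Krt7 at chr15:101412153-101412402 (plus strand) and that of Nes at chr3:87970843-87971092 (plus strand).
Krt18: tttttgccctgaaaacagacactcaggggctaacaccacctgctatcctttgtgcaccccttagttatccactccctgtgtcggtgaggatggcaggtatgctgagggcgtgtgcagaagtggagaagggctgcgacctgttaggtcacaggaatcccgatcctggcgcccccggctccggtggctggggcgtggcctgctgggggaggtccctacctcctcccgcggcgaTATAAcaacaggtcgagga
Krt8: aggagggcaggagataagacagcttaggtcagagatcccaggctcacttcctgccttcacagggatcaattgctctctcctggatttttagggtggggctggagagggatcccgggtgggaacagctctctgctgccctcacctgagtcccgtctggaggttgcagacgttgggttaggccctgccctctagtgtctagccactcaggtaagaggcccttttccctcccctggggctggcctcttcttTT
Krt7: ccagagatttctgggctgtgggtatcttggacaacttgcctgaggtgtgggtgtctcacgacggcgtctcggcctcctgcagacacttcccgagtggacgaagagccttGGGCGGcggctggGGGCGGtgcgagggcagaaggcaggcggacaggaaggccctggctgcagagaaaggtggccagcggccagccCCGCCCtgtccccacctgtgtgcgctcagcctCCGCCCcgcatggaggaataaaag
Nes: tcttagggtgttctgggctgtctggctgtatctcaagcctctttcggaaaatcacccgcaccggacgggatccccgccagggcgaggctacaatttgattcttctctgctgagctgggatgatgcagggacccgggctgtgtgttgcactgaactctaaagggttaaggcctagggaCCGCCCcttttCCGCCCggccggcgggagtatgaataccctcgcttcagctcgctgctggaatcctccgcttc
Krt18 had a TATA box that begins 19 bases before its start, no GC box, and 12 CpG dinucleotides. The closing capitals of Krt8 open matches to TATAA on either strand that cross its annotated start, and its 250 bases held 3 CpG dinucleotides. Krt7 had 4 GC boxes and 16 CpG dinucleotides, and Nes had 2 GC boxes and 15 CpG dinucleotides. In a window that adds 50 bases after the start, TATAA occurred on either strand in 24.9% and GGGCGG in 35.7% of 32851 RefSeq promoters of mouse genes. The RUNX motif TGTGGT, searched for the same way and found in 16.8% of promoters, was in the window of 1 of the 8 genes, Lmna. That match lay before a second start within Lmna (chr3:88493313-88493562). The 250 bases before the start of the Lmna transcript used here held none. The motifs named above are matches of letters and not mapped binding sites.

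Krt18 was 3.84-fold higher in Asxl2-/- LSK cells than in wild-type cells. Krt18 (NM_010664, chromosome 15, 102028216 to 102032026, plus strand of mm10, with 7 exons) had 1070, 2232 and 976 counts in the Asxl2-/- libraries and 674, 241 and 543 counts in the wild-type libraries. Scaled to library size, its level was 38.0, 41.9 and 34.4 CPM in Asxl2-/- and 12.9, 8.37 and 11.5 CPM in the wild-type libraries. Each Asxl2-/- library lay above each wild-type library, and the lowest Asxl2-/- value was well clear of the highest wild-type value. With the fitted effect of the file kind removed, Krt18 stood at 5.31 ± 0.12 in Asxl2-/- and 3.37 ± 0.13 in wild-type cells (log2 CPM, mean ± SD, n = 3 each). The log2 fold change was 1.94 (SE 0.131), with 2.10 in the transcript-level files alone and 1.78 in the exon-level files alone. In bulk RNA, more cells that express a gene and more RNA per cell cannot be told apart.

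The higher Krt18 count was spread along the whole transcript. In the exon-level files, the CPM of Asxl2-/- replicate 2 was between 2.97 and 3.80 times the mean of wild-type replicates 1 and 3 in each of the 7 exons. The first exon held 19.8% of the Krt18 counts in the Asxl2-/- library and 20.8% and 23.2% in wild-type replicates 1 and 3. The last exon held 10.5% against 10.4% and 9.58%. These 3 libraries include 1 Asxl2-/- library, so the exon profile has no replicate check.

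**Figure D1:**
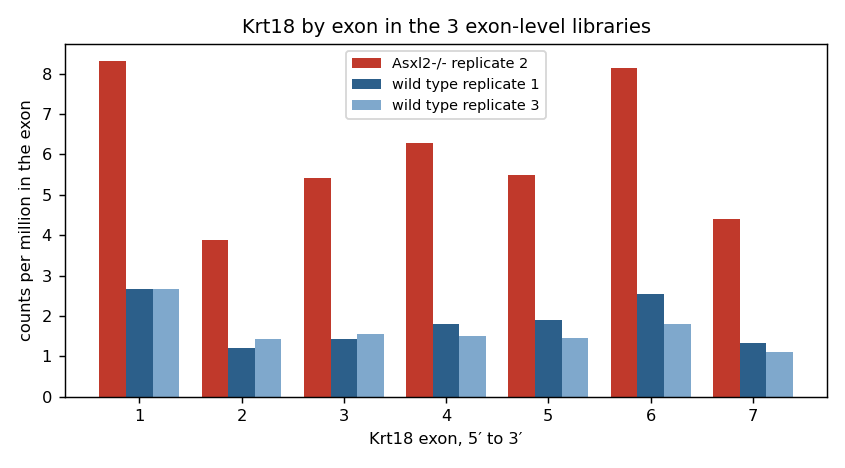
CPM in each of the 7 Krt18 exons (x axis, 5′ to 3′) for Asxl2-/- replicate 2 and wild-type replicates 1 and 3. The Asxl2-/- bar is 2.97 to 3.80 times the mean of the wild-type bars in every exon.

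Krt8, the usual partner of Krt18, was close to absent in every library. Krt8 (NM_031170, chromosome 15, 101996711 to 102004342) had 6, 23 and 10 counts in the Asxl2-/- libraries and 11, 12 and 8 in the wild-type libraries, or 0.169 to 0.432 CPM. The groups overlapped, and the log2 fold change of 0.37 (SE 0.549) was smaller than its error and had opposite signs in the transcript-level files (-0.52) and the exon-level files (1.01). The few Krt8 counts lay toward the 3′ end of the gene. The 5 exons nearest that end held 22 of 23 counts in Asxl2-/- replicate 2, 11 of 11 in wild-type replicate 1 and 8 of 8 in wild-type replicate 3. RefSeq lists a Krt8 pseudogene (Krt8-ps) on chromosome 7, and how reads matching both were counted is not given in the sources used here, so the Krt8 counts are uncertain.

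Per base of transcript, Krt18 exceeded Krt8 in all 6 libraries. The ratio of Krt18 to Krt8 was 230 (95% counting interval 106 to 627), 125 (83.4 to 197) and 126 (68.4 to 262) in the Asxl2-/- libraries. It was 79.0 (44.2 to 158), 25.9 (14.8 to 50.1) and 87.5 (44.4 to 203) in the wild-type libraries. The 3 Asxl2-/- ratios lay above the 3 wild-type ratios, but the intervals of single libraries overlapped except against wild-type replicate 2. The intervals cover the counting error of Krt8 only, with the Krt18 count taken as fixed. They may be too narrow, because PCR-amplified reads are not independent molecules and exon-level files count junction reads more than once.

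**Figure D2:**
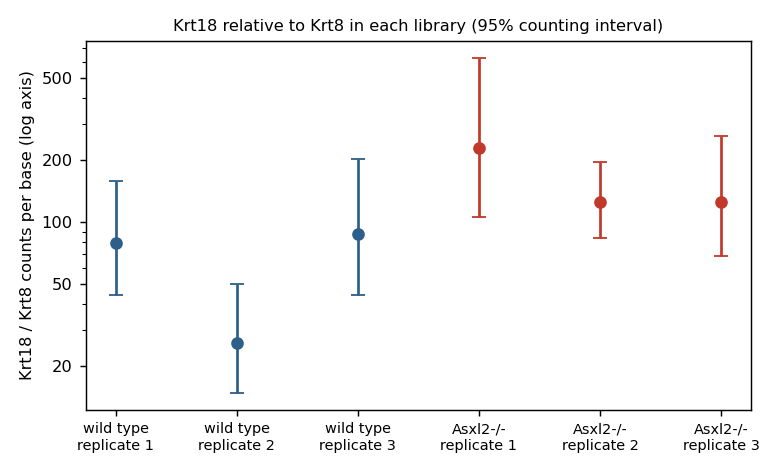
Ratio of Krt18 to Krt8 counts per base (y axis, log scale) in each library (x axis), with bars for the 95% counting interval of the Krt8 count. The ratio lies between 25.9 and 87.5 in the wild-type libraries and between 125 and 230 in the Asxl2-/- libraries.

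Krt7, a type II keratin able to pair with Krt18, was present at a low level and was higher in Asxl2-/- cells. Krt7 (NM_033073, chromosome 15, 101412403 to 101427806) had 62, 96 and 48 counts in the Asxl2-/- libraries and 39, 11 and 24 in the wild-type libraries. In CPM this was 1.69 to 2.20 against 0.382 to 0.748, with no overlap between the groups. The log2 fold change was 1.88 (SE 0.382), close to that of Krt18 but with a larger error, and it was 2.20 in the transcript-level files and 1.48 in the exon-level files.

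Krt10, a keratin of differentiating epidermis, had 44, 74 and 55 counts in the Asxl2-/- libraries and 49, 26 and 49 in the wild-type libraries. The levels of 1.39 to 1.94 CPM in Asxl2-/- and 0.903 to 1.03 CPM in wild-type libraries did not overlap, with a log2 fold change of 0.71 (SE 0.306). In the exon-level files, the 2 exons nearest the 3′ end held 41 and 24 of the 74 Krt10 counts in Asxl2-/- replicate 2. They held 29 and 17 of 49 in wild-type replicate 1 and 29 and 19 of 49 in wild-type replicate 3. No other exon had more than 3 counts, so these counts cover the whole Krt10 transcript poorly. Krt19, the smallest type I keratin, had 1, 2 and 0 counts in the Asxl2-/- libraries and 0 in each wild-type library. All 6 values are at or under 3 counts, the floor used here, so no fold is given and Krt19 was not detectable at this depth.

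Among all keratins in the files, Krt18 made up nearly all type I counts. Of 52 keratin symbols, 27 are type I and 24 are type II, and 18 and 9 of them had 0 counts in every library. Per base, Krt18 accounted for 97.1%, 97.6% and 96.1% of type I keratin counts in the Asxl2-/- libraries and for 94.9%, 92.9% and 94.1% in the wild-type libraries. Krt7 and Krt80 together, a sum chosen after the values were seen, made up 93.7% to 95.6% of type II counts in Asxl2-/- and 88.1% to 90.2% in wild-type libraries. Type I exceeded type II per base by 2.39, 2.68 and 2.89 times in Asxl2-/- and by 3.39, 2.86 and 4.58 times in the wild-type libraries. The ranges of this ratio overlapped between the groups.

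Of the 47 other keratins, 27 had 0 counts in every library, 2 passed the filter on low counts and 1 of these, Krt80, was raised. Krt80 (NM_028770, chromosome 15, 101349571 to 101370125), a type II keratin, had 490, 918 and 363 counts in the Asxl2-/- libraries and 191, 89 and 117 in the wild-type libraries. Its log2 fold change was 2.39 (SE 0.229, adjusted p by edgeR = 0.0169), with 2.25 in the transcript-level files and 2.50 in the exon-level files. The call was lost without Asxl2-/- replicate 1 (adjusted p by edgeR = 0.0686) and without wild-type replicate 3 (0.0995). Krt83, a hair keratin, had 9 to 17 counts in Asxl2-/- and 0 to 4 in wild-type libraries, and its 7.97-fold difference (SE 0.878 on the log2 scale, adjusted p by edgeR = 0.105) did not pass.

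Markers of epithelial cells, in which Krt18 is usually abundant, were scarce in both groups. The summed level of 10 epithelial markers was 2.36 to 3.46 CPM in Asxl2-/- and 2.57 to 4.93 CPM in wild-type libraries, and Cldn3, Cldn4, Esrp1, Grhl2 and Elf3 had at most 10 counts in any library. Cldn7 was higher in Asxl2-/- without overlap (0.432 to 0.776 against 0.105 to 0.192 CPM). Cdh1 ranged lower in Asxl2-/- with overlap (0.494 to 1.60 against 1.12 to 3.20 CPM). None of the 4 epithelial markers tested was past the threshold. Of 5 mesothelial markers, Msln, Upk3b and Wt1 were at 0 in every library, and the list summed to 3.65 to 7.95 CPM against 3.14 to 5.41 CPM. Of 7 megakaryocyte markers, 4 were raised, namely Pf4, Ppbp, Gp5 and Vwf (log2 fold changes 2.03, 2.72, 0.72 and 2.17, adjusted p by edgeR = 0.0496, 0.0228, 0.0281 and 0.019), beside 2.04% of all genes raised. Their list summed to 315 to 820 CPM in Asxl2-/- and 158 to 352 CPM in wild-type libraries, and none of its 7 genes was at 0. The part of megakaryocyte transcripts in the Krt18 and Krt7 values was not tested.

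Nes had the largest fold of the 10 genes, from a base near the detection floor. Nes (NM_016701, chromosome 3, 87971093 to 87980451, 4 exons) had 69, 58 and 50 counts in the Asxl2-/- libraries and 6, 4 and 4 counts in the wild-type libraries. The levels of 1.09 to 2.45 CPM and 0.0844 to 0.139 CPM did not overlap. The log2 fold change was 3.61 (SE 0.406), a 12.2-fold difference, with 3.49 in the transcript-level files and 2.93 in the exon-level files. The 2 last values use a prior count of 2, which lowers folds of genes with few counts. In Asxl2-/- replicate 2, 50 of the 58 Nes counts lay in the last exon of 5031 bases and the other 3 exons held 5, 1 and 2 counts, while the wild-type counts lay in the last exon alone.

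The summed levels of the marker lists closest to known Nes-expressing cells overlapped between the groups. The 10 stromal and mesenchymal markers summed to 161 to 390 CPM in Asxl2-/- and 53.5 to 240 CPM in wild-type libraries, the 9 endothelial markers to 167 to 213 against 147 to 196 CPM, and the 7 neural and glial markers to 90.1 to 175 against 133 to 170 CPM. Single genes did not all overlap. Emcn (2.64 to 5.05 against 0.799 to 2.57 CPM), Plvap (9.72 to 15.6 against 5.49 to 9.70) and Lum (0.301 to 1.38 against 0.139 to 0.269) were higher in Asxl2-/-. Tubb3 (1.35 to 4.90 against 7.85 to 55.5 CPM) was lower. Such separation was seen for 15.4% (higher) and 9.36% (lower) of all genes tested. None of these lists had a gene at 0 in every library or a gene past the threshold. Their part in the Nes value was not tested.

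Vim was lower in Asxl2-/- cells in the transcript-level files and little different in the exon-level files. Per base of transcript, its mean level was the highest of the 10 genes in both groups, although Lmnb1 had more CPM in most libraries. Vim (NM_011701, chromosome 2, 13574311 to 13582826) had 10556, 22927 and 9032 counts in the Asxl2-/- libraries and 26172, 19364 and 20670 in the wild-type libraries. In CPM the values were 375, 431 and 318 against 502, 673 and 436. The groups did not overlap, although Asxl2-/- replicate 2 and wild-type replicate 3 were nearly equal. The log2 fold change was -0.54 (SE 0.195), made up of -0.96 in the transcript-level files and -0.12 in the exon-level files. Wild-type replicate 2 is the only wild-type library in the transcript-level files, and without it the fit gave -0.12 (SE 0.164). Leaving out any other single library gave -0.96 to -0.45. Per base, Krt18 amounted to 13.3%, 12.8% and 14.2% of Vim in Asxl2-/- and to 3.37%, 1.63% and 3.44% in the wild-type libraries.

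Lmna had lower CPM in the Asxl2-/- libraries, and the B-type lamins were at similar levels. Lmna (NM_001002011, chromosome 3, 88481148 to 88503352) had 1014, 2689 and 1573 counts in the Asxl2-/- libraries and 3800, 1779 and 5649 in the wild-type libraries. The CPM values of 36.0, 50.5 and 55.5 in Asxl2-/- and 72.9, 61.8 and 119 in wild-type libraries did not overlap, but wild-type replicate 3 stood well above the other wild-type libraries. The log2 fold change was -0.68 (SE 0.271), with -0.47 in the transcript-level files and -0.88 in the exon-level files. Lmna was not past an edgeR adjusted p of 0.05, and leaving out a library gave -0.92 to -0.43.

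Lmnb1 (NM_010721, chromosome 18, 56707813 to 56753424) had 475 to 552 CPM in Asxl2-/- and 508 to 571 CPM in wild-type libraries. Its log2 fold change was -0.03 (SE 0.087) and turned positive (0.068) when libraries were scaled by size only. Lmnb2 (NM_010722, chromosome 10, 80901363 to 80918245) had 96.1 to 121 CPM in Asxl2-/- and 98.9 to 112 CPM in wild-type libraries. Its log2 fold change was 0.05 (SE 0.112), with a sign that turned under median-ratio scaling (-0.0022) and in DESeq2 (-0.0019). The groups overlapped for both genes. The median log2 fold change of all tested genes was 0.001 with TMM scaling and moved to 0.099 with library size only and to -0.047 with median-ratio scaling.

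The makeup of the lamina transcripts followed Lmna. Per base, Lmna was 5.30%, 6.48% and 8.21% of the 3 lamin genes in Asxl2-/- and 9.69%, 8.41% and 14.0% in the wild-type libraries. The highest Asxl2-/- share was just below the lowest wild-type share. Lmnb1 exceeded Lmna by 15.1, 12.2 and 9.56 times in Asxl2-/- and by 7.94, 9.18 and 5.35 times in the wild-type libraries.

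The exon-level files resolve 2 exons of Lmna that are part of the lamin A transcript alone, at chromosome 3, 88481148 to 88482100 and 88482346 to 88482612. They held 132 of 2689 Lmna exon counts in Asxl2-/- replicate 2, or 4.91% (4.15 to 5.79, 95% by Wilson's method). In wild-type replicate 1 they held 146 of 3800, or 3.84% (3.28 to 4.50), and in wild-type replicate 3 they held 246 of 5649, or 4.35% (3.85 to 4.92). Fisher's exact test, two-sided, gave p = 0.0399 for the Asxl2-/- library against wild-type replicate 1 and p = 0.26 against wild-type replicate 3, or 0.12 and 0.26 after Benjamini-Hochberg adjustment over 3 pairs of libraries. These tests compare libraries and not conditions, and like the intervals they cover counting error only, with reads across a junction counted in each exon. Per base, the lamin A exons had 0.0826, 0.064 and 0.0729 times the counts of the shared exons, so most Lmna counts came from parts of the gene shared with lamin C. The transcript-level files count shared exons for each transcript (1014 for lamin A and 928 for lamin C in Asxl2-/- replicate 1), so they do not measure isoform use.

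Of the 9 intermediate filament genes that passed the filter on low counts, 6 had a positive and 3 a negative log2 fold change, with a median of 0.37. Krt18 and Nes were past an edgeR adjusted p of 0.05, beside 2.34% of the 14145 genes tested (2.04% raised and 0.304% lowered). In CPM, 6 of the 9 did not overlap between the groups, beside 24.8% of all genes tested. Of these, 4 were higher in Asxl2-/-, beside 15.4%, and 2 lower, beside 9.36%. Since Krt18 was chosen for this contrast, nothing is read from these counts. Without wild-type replicate 3, none of the 9 genes and only 9 genes in all passed, and Nes also missed the threshold without Asxl2-/- replicate 1, Asxl2-/- replicate 3 or wild-type replicate 2.

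**Figure D3:**
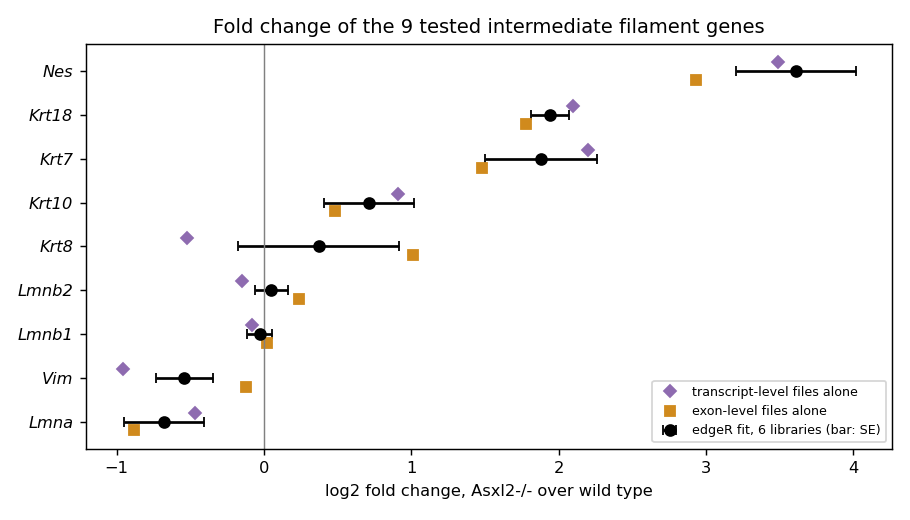
Log2 fold change of Asxl2-/- over wild type (x axis) for the 9 tested genes (y axis), from the edgeR fit with SE bars and from each kind of file alone. Nes, Krt18 and Krt7 lie at 1.88 or above in the fit, Lmnb1 and Lmnb2 lie near 0, where their signs depend on the scaling, and the kinds of file give opposite signs for Krt8.

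Counts per kilobase of transcript allow the genes to be ranked. On the log2 scale of CPM per kilobase, the wild-type means were 8.19 ± 0.26 for Vim, 7.52 ± 0.08 for Lmnb1, 4.96 ± 0.12 for Lmnb2, 4.62 ± 0.37 for Lmna and 2.88 ± 0.13 for Krt18 (SD, n = 3). The other genes lay far lower, at -1.50 for Krt7, -2.56 for Krt8 and -1.04 for Krt10, whose counts lay mostly near its 3′ end. Without a log scale, Nes had 0.0138 to 0.0227 CPM per kilobase and Krt19 none in the wild-type libraries. Lmnb2 and Lmna did not differ beyond their spread in wild-type cells, with a mean difference of 0.34 ± 0.47 (SD, n = 3) that changed sign between libraries.

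In Asxl2-/- cells Krt18 took the fourth place, at 4.83 ± 0.12, ahead of Lmna at 3.94 ± 0.33 (SD, n = 3). Lmna exceeded Krt18 in each wild-type library, by 1.31 to 2.19 on this log2 scale, and was below it in each Asxl2-/- library, by 0.49 to 1.25. Krt7 (0.33) likewise stood above Krt10 (-0.35) in Asxl2-/- cells and below it in wild-type cells. Vim and Lmnb1 did not differ beyond their spread in Asxl2-/- cells (0.15 ± 0.24, SD, n = 3, with a change of sign). Nes, below Krt8 in each wild-type library, stood at -1.93 ± 0.28 in Asxl2-/- cells, within the spread of Krt8 (-2.31 ± 0.54, SD, n = 3).

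**Figure D4:**
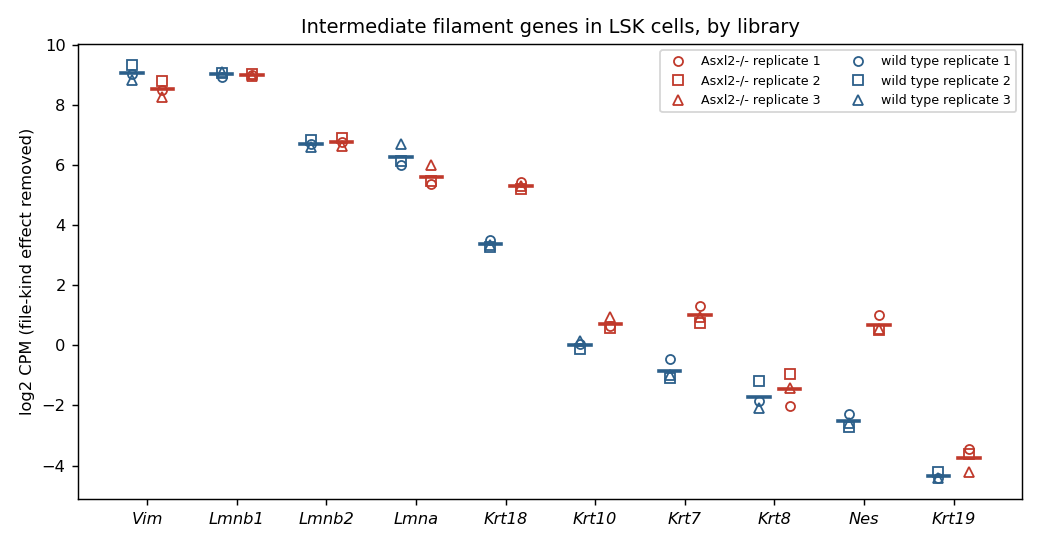
Log2 CPM after removal of the file-kind effect (y axis) for the 10 genes (x axis, in order of wild-type level per kilobase), with 1 symbol per library and a line at each group mean. The groups stand apart for Krt18, Krt7, Nes and Krt10 and nearly touch without overlap for Vim and Lmna, which are lower in Asxl2-/-. They overlap for Krt8, Lmnb1 and Lmnb2, and Krt19 is at the floor.

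With the fitted effect of the file kind removed from log2 CPM, the pattern of Krt18 over the 6 libraries was most like that of Fam43a and Map2k5 (Pearson r = 0.9998 each). Next came Lrp12 (0.9995), Aak1 (0.9994), Rab34 (0.9993), Aif1l and Nes (0.9992 each) and Pld1 (0.9991). The 11709 genes ranked had at least 50 counts in each Asxl2-/- library, with no minimum in wild type. The likeness is one of shape and not of size, since the log2 fold changes of these genes ran from 0.14 for Map2k5 to 3.84 for Rab34. Before the file-kind effect was removed, the groups overlapped for Aak1 and Map2k5. Map2k5 had 40.4, 61.9 and 40.0 CPM in Asxl2-/- and 56.8, 36.2 and 56.1 CPM in the wild-type libraries. Among the 10 genes, r with Krt18 was 0.99 for Krt7 and 0.93 for Krt10, -0.80 for Vim and -0.78 for Lmna, and 0.21 for Krt8. These values reuse the contrast on which Krt18 was selected and the group where it is high, so they describe 6 libraries in 2 groups and carry no p.

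The tested genes within 250 kb of Krt18 did not move as a block. Krt8 begins 23.9 kb away, and of 10 tested genes within 250 kb, a window chosen after values were seen, 2 were past the threshold, beside 2.34% of all genes tested. They were Tenc1, which encodes a tensin, a protein of focal adhesions (70962 bases away, log2 fold change 1.84, SE 0.324, adjusted p by edgeR = 0.0497), and Rarg, which encodes a retinoic acid receptor (203 kb away, 1.79, SE 0.188, adjusted p = 0.0178). The nearest tested gene on the other side of Krt18 from Krt8, the translation factor Eif4b (41.7 kb), had a log2 fold change of -0.12 (SE 0.101, adjusted p by edgeR = 0.476). The lowest value was that of the integrin Itgb7 (-0.82, SE 0.255, adjusted p by edgeR = 0.115). Krt8 was the only tested gene of the window on its side of Krt18. Krt7, Krt83 and Krt80, each higher in Asxl2-/-, lie on chromosome 15 beyond the window on that side. Genes beyond the window were not examined as a set. With 1 library left out, Tenc1 passed only without wild-type replicate 1, and Rarg missed the threshold without Asxl2-/- replicate 1, Asxl2-/- replicate 3 or wild-type replicate 3 (adjusted p by edgeR 0.0547 to 0.0995).

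Proteins that tie intermediate filaments to cell junctions were tested as 14 genes of a list of 22, with 4 of the 22 at 0 in every library. Itga6, the integrin subunit of hemidesmosomes that is also present on blood stem cells, was raised. Its CPM was 185, 252 and 213 in Asxl2-/- and 136, 131 and 132 in the wild-type libraries (log2 fold change 0.76, SE 0.107, adjusted p by edgeR = 0.0319). That call was kept in only 1 of 6 cases when a library was left out, the one without wild-type replicate 1. Of the 14, 11 had a positive and 3 a negative log2 fold change, with a median of 0.74 beside 0.001 for all genes tested. In CPM 9 did not overlap with Asxl2-/- higher and 2 with Asxl2-/- lower, beside 15.4% and 9.36% of all genes tested. By edgeR 10 of the 14 were under an unadjusted p of 0.05, beside 27.7% of all genes. DESeq2 called 8, beside 17.1% of the genes given an adjusted p, and limma-voom called 2, beside 3.04%. The list was chosen with earlier results of these data known. Some of its genes, such as Dsg2 and Dsp, passed the filter on low counts only through the group where they are higher. Nothing is therefore read from these counts or from the median.

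Within that list the values ran in opposite directions, and the genes named next were chosen after their values were seen. Jup (plakoglobin), a linker of desmosomes and adherens junctions, had 13.9 to 15.4 CPM in Asxl2-/- and 5.04 to 8.50 CPM in wild-type libraries (log2 fold change 1.34, SE 0.239, adjusted p by edgeR = 0.0506). Pkp2 (plakophilin 2) had 6, 34 and 6 counts in Asxl2-/- and 89, 44 and 144 in the wild-type libraries (-2.30, SE 0.410, adjusted p by edgeR = 0.0506). Dsp (desmoplakin), which anchors keratins at desmosomes, had 1 to 5 counts in Asxl2-/- and 19 to 22 in wild-type libraries (-2.53, SE 0.603, adjusted p by edgeR = 0.0779). Dsg2, a desmosomal cadherin, had 22 to 70 counts against 0 to 8 (3.07, SE 1.04, adjusted p by edgeR = 0.132). None of these 4 passed by edgeR, while DESeq2 called Jup (adjusted p = 5.01e-05), Pkp2 (0.00116) and Dsg2 (0.0353) and gave Dsp no adjusted p, and limma-voom called Jup (0.0417).

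**Figure D5:**
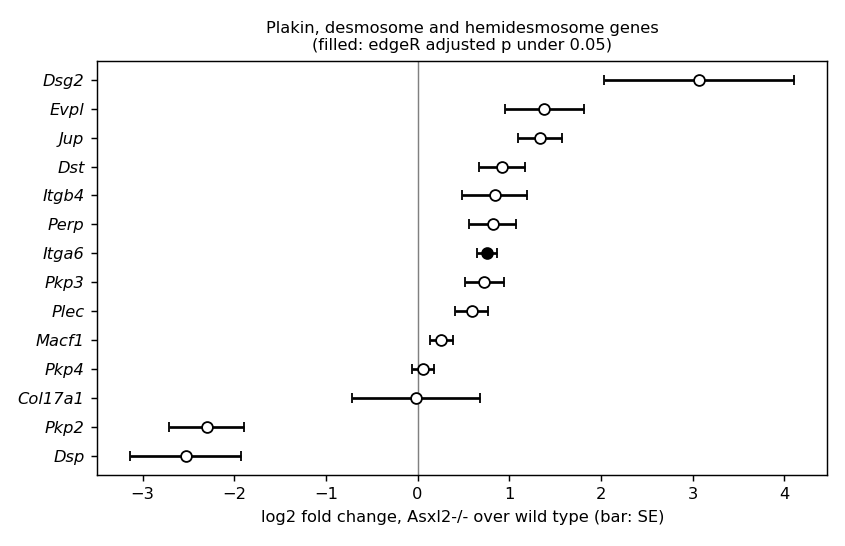
Log2 fold change of Asxl2-/- over wild type with its SE (x axis) for the 14 tested plakin, desmosome and hemidesmosome genes (y axis). Itga6 is the filled point, past an edgeR adjusted p of 0.05, while Pkp2 and Dsp lie at -2.30 and -2.53 and Dsg2 at 3.07 without passing by edgeR.

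Other filament and lamina genes gave no call by edgeR at the adjusted threshold. Of 9 tested genes among the other cytoplasmic intermediate filament genes, 4 were under an unadjusted p of 0.05, 3 were called by DESeq2 and 0 by limma-voom, beside the same 27.7%, 17.1% and 3.04% of all genes. Iffo2 (1.07, SE 0.240, adjusted p by edgeR = 0.0732) and Iffo1 (-0.39, SE 0.0913, adjusted p by edgeR = 0.0758), members of the intermediate filament family orphan group, had the smallest p-values. Gfap, the astrocyte filament protein, had 41 to 1238 counts in single libraries with no separation by group.

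The 17 tested partners of lamins in the nuclear envelope had a median log2 fold change of -0.03, with 4 under an unadjusted p of 0.05, 2 called by DESeq2 and 0 by limma-voom, beside 27.7%, 17.1% and 3.04% of all genes. Syne3, a nesprin that links the nucleus to the cytoskeleton, had the smallest p (0.38, adjusted p by edgeR = 0.0741), followed by the nucleoporin Nup50 (-0.30, adjusted p by edgeR = 0.134). The 5 genes of lamin prenylation and processing all had negative values with TMM scaling, with a median of -0.14, and none was under an unadjusted p of 0.05 or called by DESeq2 or limma-voom. Among them were Zmpste24, the protease that matures prelamin A (-0.20, adjusted p by edgeR = 0.256), and Fntb, a farnesyltransferase subunit (-0.14, adjusted p by edgeR = 0.336). The 21 filament kinases, chaperones and caspases had a median of -0.05, with 3 under an unadjusted p of 0.05, 2 called by DESeq2 and 0 by limma-voom, beside those same shares. The mitotic kinase Plk1 (-0.37, adjusted p by edgeR = 0.0999) had the smallest p of that list. Over all 6 lists, 2 of 68 tested genes were raised and 0 lowered, beside 2.04% and 0.304% of all genes tested.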

How the data were processed

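Poly(A)-selected, unstranded RNA libraries were counted by the authors on mm10 with RefSeq transcripts. The deposited values were raw whole-number counts, 1 file per library, per transcript in 3 libraries and per exon in 3, with replicates not pooled. The submitters' processing notes name STAR, featureCounts and DESeq2 without versions, and the methods name Cuffdiff for testing. Each symbol was represented by its transcript of longest summed exon length, and exon counts were summed. Differences were tested by quasi-likelihood in edgeR 4.0.16 (R 4.3.3), with TMM scaling, filterByExpr, a design of file kind plus group (3 residual degrees of freedom) and two-sided p-values adjusted over 14145 genes by the Benjamini-Hochberg method. SEs were derived from the F statistic. Log2 CPM used a prior count of 2 and limma 3.58.1 to remove the file-kind effect, which makes SDs somewhat small. The procedure was checked on simulated counts. Floors were 3 counts per library. All 10 genes were named. From each list, genes past the threshold or else the 2 smallest p-values were named, with exceptions stated and 1 gene not reported here, and the 8 genes most like Krt18 had at least 50 counts in each Asxl2-/- library. The genes and lists were chosen with earlier results of these data known. Alternatives included DESeq2 1.42.0, limma-voom, other scalings, filters and transcripts, the longest exon, no file kind, a replicate block and leaving out each library.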

Additional observations from a re-analysis of the deposited data

How the results depend on the processing

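As a description, since Krt18 was selected on this contrast, its log2 fold change ran from 1.78 to 2.11 over 19 alternatives, and that of Nes from 2.93 to 3.95 over 18. The number of genes differing, 331, was 2329 with DESeq2, 161 with library size only, 5179 with a replicate block and file kind, and 9 to 1312 when a library was left out. The number of intermediate filament genes past the threshold, 2, was 5 with DESeq2, 1 with at least 10 counts in every library, 5 with the replicate block and file kind, and 0 to 3 when a library was left out. The number of listed pathway genes, 2, was 16 with DESeq2, 29 with the replicate block and file kind, 4 with the shortest transcript, and 0 to 11 when a library was left out. The block with file kind leaves 1 residual degree of freedom. Whether replicate numbers pair the samples could not be decided. Deviations of same-numbered libraries correlated at 0.294, -0.008 and -0.003, and 2 of 6 libraries correlated best with their own number. The file-kind effect was not removed from these deviations, and same-numbered libraries always differed in file kind, which can lower these correlations. Left-out libraries gave -0.96 to -0.12 for Vim, -0.92 to -0.43 for Lmna, -0.55 to 1.17 for Krt8, -0.081 to 0.022 for Lmnb1 and -0.15 to 0.24 for Lmnb2. Signs turned for Krt8 without Asxl2-/- replicate 2 (-0.55), for Lmnb1 with library size only (0.068) and without wild-type replicate 2 (0.022), and for Lmnb2 with DESeq2 (-0.0019), median-ratio scaling (-0.0022), without Asxl2-/- replicate 2 (-0.15) and without wild-type replicate 3 (-0.0066). Map2k5 turned without file kind (-0.067) and with the block alone (-0.074). Lamin A exon shares were also taken with a smaller denominator, the counts in those exons and 3 neighbouring shared exons together. They were 16.9%, 15.2% and 16.5% in Asxl2-/- replicate 2 and wild-type replicates 1 and 3. Krt18 minus Lmnb2 per kilobase in wild-type cells was -2.08, and -1.71 from the longest exons, on the log2 scale. Beyond these constructions, the cause of the changes was not tested. Counts under about 10 per library limit Krt8, Krt19 and wild-type Nes.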
